A study of Rattus norvegicus with 13 samples.

Results

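Spironolactone was compared with vehicle at day 3 in rat tissue from the rim of the cornea, with 3 RNA-seq libraries per treatment, taken by their titles. These 6 libraries are part of a series of 13. The question was which transcripts differ between the treatments at this time, across 14761 expressed genes, with and without the genes of muscle, retina and lens that came along in the dissection. The tissue came from wild-type Lewis rats, males of 2 months, in which limbal stem cell deficiency and corneal neovascularization were modelled. One group received systemic spironolactone at 25 mg/kg/day by subcutaneous injection, and the other received a vehicle of 90% olive oil and 10% DMSO. The protocol text gives 3 days of spironolactone injections for all libraries, the vehicle libraries included, so the schedule of the vehicle injections is not settled by the labels. Separate animals are not stated for the libraries, and p-values therefore measure only how these libraries vary, which may in part be technical.

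Spironolactone is a steroid antagonist of the mineralocorticoid receptor, a nuclear receptor for aldosterone and cortisol-type hormones, and it also binds androgen and progesterone receptors. The limbus is the border between cornea and conjunctiva, where basal epithelial cells renew the corneal surface and a ring of vessels ends. When limbal stem cells are lost, conjunctival epithelium and vessels spread onto the cornea. Dissecting this rim can carry along muscle attached to the eye, retina and lens, and transcripts of these tissues are read in the same bulk RNA.

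The promoters of 3 genes are shown because each stands for a set described below: Acta1, the skeletal muscle actin, for the muscle transcripts; Sprr1a, a cornified envelope precursor, for the wound keratins; and Col17a1, the hemidesmosomal collagen, for epithelial adhesion. Each line gives the 250 bases before the RefSeq start on the gene's own strand in the GRCr8 assembly: Acta1 at chr19:68784195-68784444, Sprr1a at chr2:180752626-180752875 and Col17a1 at chr1:256518858-256519107, all on the minus strand. Capitals mark an E-box (CAGCTG), an AP-1 motif (TGANTCA) or a TATA motif (TATAAA), searched on both strands; none of the marked matches overlap.
Acta1: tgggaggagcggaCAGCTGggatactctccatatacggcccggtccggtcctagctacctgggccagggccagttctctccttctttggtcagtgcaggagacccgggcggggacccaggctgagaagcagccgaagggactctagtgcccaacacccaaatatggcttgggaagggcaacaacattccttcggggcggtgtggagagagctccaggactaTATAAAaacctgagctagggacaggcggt
Sprr1a: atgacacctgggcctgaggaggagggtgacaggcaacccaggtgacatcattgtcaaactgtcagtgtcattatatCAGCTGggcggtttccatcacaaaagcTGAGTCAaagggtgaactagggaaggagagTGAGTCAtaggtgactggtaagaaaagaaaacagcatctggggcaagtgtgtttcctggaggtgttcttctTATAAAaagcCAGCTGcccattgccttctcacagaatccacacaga
Col17a1: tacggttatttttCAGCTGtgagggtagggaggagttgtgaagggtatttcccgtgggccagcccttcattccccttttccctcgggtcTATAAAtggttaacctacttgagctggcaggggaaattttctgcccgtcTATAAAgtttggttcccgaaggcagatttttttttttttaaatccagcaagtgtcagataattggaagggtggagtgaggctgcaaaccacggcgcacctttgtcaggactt
The Acta1 window holds an E-box starting 237 bases before the start and a TATA motif 29 bases before it. Sprr1a holds AP-1 motifs 147 and 117 bases before the start, E-boxes 174 and 36 bases before it and a TATA motif 46 bases before it. Col17a1 holds an E-box 237 bases before the start and TATA motifs 161 and 112 bases before it. Over windows from 250 bases before to 50 after the start, the E-box was found in 24 of the 57 muscle-list promoters in the table (42.1%), against 16.7% of the 10893 promoters of tested genes. The AP-1 motif was found in 4 of 18 promoters of the wound keratin list (22.2%), against 5.27% of those of tested genes. On the wound keratin, adhesion, corneal epithelium and ribosomal lists the E-box share was 22.2%, 15.8%, 13.3% and 11.4%. The AP-1 share was 8.77% on the muscle list, 13.3% on corneal epithelium, 10.5% on adhesion and 2.86% on the ribosomal list. A match describes these letters and is no evidence of binding.

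The libraries held 18.1 to 25.3 M estimated counts each, and 16909 to 17378 genes had a count. Within groups no pair of libraries agreed within sampling noise: chi-square per gene was 7.94 to 23.8. Mitochondrial transcripts took 4.17% to 4.85% of the counts with spironolactone and 5.13% to 5.48% with vehicle. Spironolactone library 3 stood apart from all others: 729 genes were at least 2-fold lower in it than in each other library, against 7 to 33 genes in the other libraries. Of these 729 genes, 63 were among the 70 tested genes of the retina list, and 664 were off the muscle, retina and lens lists. On the first principal component of log2 CPM, with 62.5% of the variance, spironolactone library 3 scored 69.0 and the others -26.7 to 2.07. After removal of the 3 lists that component still took 63.2%, and genes at its low end included Gad2, Gjd2 and Car10. Whether genes off the lists also came from carried-over tissue was not tested. Lens crystallins were low in the other libraries and highest in vehicle library 3, and vehicle library 1 alone was at least 2-fold above all others in 10 genes, among them Il6, Il11, Ccl2, Cxcl1 and Spp1, which encode cytokines, chemokines and osteopontin.

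Transcripts of skeletal muscle and retina were below the lowest vehicle library in all 3 spironolactone libraries, and those of lens were high in 1 vehicle library. The 71 tested genes of the muscle list summed to 506, 485 and 727 CPM (read counts scaled to library size with TMM factors) in spironolactone libraries 1 to 3 and to 1149, 2516 and 2138 CPM in vehicle libraries 1 to 3. Their means were 573 ± 134 and 1934 ± 706 CPM (SD, n = 3 each), a ratio of 0.296. The 70 retina genes summed to 5290, 6694 and 744 CPM with spironolactone and to 8537, 7795 and 7983 CPM with vehicle. The groups did not overlap for either list, and spironolactone library 3 had the least retina and the most muscle of its group. The 14 lens genes summed to 30.8, 17.2 and 25.9 CPM against 25.4, 48.5 and 496 CPM, so only vehicle library 3 stood out. By exact permutation, two-sided, p was 0.1 for muscle and for retina and 0.3 for lens, adjusted over the 3 lists to 0.15, 0.15 and 0.3, where 0.1 is the smallest p that 3 against 3 allows. In bulk tissue, fewer cells of a type and less RNA per cell cannot be told apart. How much tissue each dissection carried along was not measured.

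**Figure D1:**
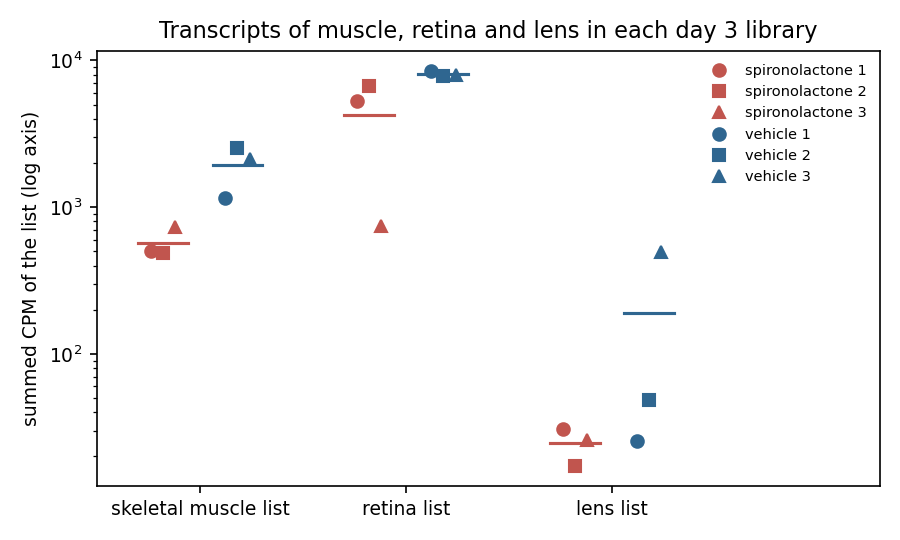
Summed CPM of the skeletal muscle, retina and lens lists in each day 3 library (log axis), with a horizontal line at the group mean. All 3 spironolactone libraries lie below the vehicle libraries for muscle and retina, spironolactone library 3 is far below the rest for retina (744 CPM), and vehicle library 3 is far above the rest for lens (496 CPM).

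Nearly the whole muscle list was lower with spironolactone. Acta1 had 44.3, 41.4 and 70.8 CPM with spironolactone and 127, 265 and 223 CPM with vehicle. Myog, which drives muscle differentiation, had 0.62, 0.524 and 0.6 CPM against 2.82, 4.17 and 3.37 CPM. Myh3, an embryonic myosin heavy chain, had 11.8, 19.0 and 34.8 CPM against 56.5, 184 and 115 CPM. In each of these genes the groups did not overlap, and vehicle library 1 was the lowest of its group. Their log2 fold changes, spironolactone over vehicle, were -1.98 (SE 0.35), -2.57 (SE 0.24) and -2.44 (SE 0.59). Of the 71 muscle genes, 70 were lower, 62 with an unadjusted p under 0.05 in edgeR (87.3%, against 10.4% of all genes). DESeq2 called 59 lower (83.1%, against 3.34%). The median log2 fold change of the list was -1.87, against -0.01 over all genes tested. The other muscle genes of highest level were Myh2, Myl1 and Mybpc1, with log2 fold changes of -2.27, -2.32 and -0.83. Further genes known from muscle but not on the list were among the lower genes named by a rule that asks for groups apart. Their separation follows from how they were picked. Unc45b, a myosin chaperone, had 0.338, 0.483 and 0.75 CPM against 1.74, 3.54 and 2.87 CPM. Rpl3l, a ribosomal protein of striated muscle, and Des, the muscle intermediate filament desmin, had log2 fold changes of -2.59 and -0.96.

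Among the most abundant retina transcripts were those of rod photoreceptors. Gnat1, the rod transducin subunit, had 875, 1133 and 51.5 CPM with spironolactone and 1558, 1396 and 1402 CPM with vehicle. The vehicle libraries were close to one another, and spironolactone library 3 was more than an order of magnitude below them. The log2 fold change of Gnat1 was -1.08 (SE 0.98), an interval too wide to call, and those of Pde6a, Pdc and Rp1 were -0.96, -1.06 and -1.06. All 70 retina genes had a lower mean with spironolactone, but 2 had an unadjusted p under 0.05 (2.86%, against 10.4% of all genes). Without spironolactone library 3 their median log2 fold change was -0.44 instead of -0.96, and 51 had an unadjusted p under 0.05; without spironolactone library 2 it was 11. The lens crystallins Cryaa, Cryba1 and Crybb2 had log2 fold changes of -3.86, -5.09 and -4.48. These rested on vehicle library 3, where Cryaa had 230 CPM against 0.886 to 22.0 CPM elsewhere, and without it the lens median was -0.49 instead of -3.46.

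Across all genes, the groups were apart in many transcripts by small amounts, and edgeR called 0 of 14761 genes at an adjusted p of 0.05 (0% higher and 0% lower). Its lowest adjusted p was 0.0649, shared by many genes, and 3333 genes had an unadjusted p under 0.05: 1798 higher with spironolactone (12.2%) and 1535 lower (10.4%). Limma-voom also called 0 genes, with 3451 at an unadjusted p under 0.05. DESeq2 called 1344, of which 851 were higher (5.77%) and 493 lower (3.34%). The 3 spironolactone values lay entirely above the vehicle values in 2357 genes (16.0%) and entirely below in 2369 (16.0%), 32.0% together. The median absolute log2 fold change was 0.146. A 2-fold mean difference or more was seen in 56 genes that were higher and 372 that were lower. For 9736 genes (66.0%) the 95% interval of the fold change lay within 1.5-fold in either direction.

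Removing the genes on the muscle, retina and lens lists moved these counts by little. Those genes held 0.148% to 1.08% of the counts of each library. Without the 3 lists and with libraries scaled anew, edgeR called 0 of 14585 genes (0%), with a lowest adjusted p of 0.0683 and 3307 at an unadjusted p under 0.05. The groups were then apart in 4601 genes. DESeq2 called 1272 genes, 828 higher and 444 lower, and 1259 of these were among its 1344. All 62 DESeq2 calls on the 3 lists were lower: 59 of muscle, 2 of retina and 1 of lens. Off the lists, 279 genes were still at least 2-fold lower. Of the 372 genes that were 2-fold lower in all, 159 were at least 2-fold lower in spironolactone library 3 than in each other library.

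The number of calls depended on single libraries. Without vehicle library 3, edgeR called 781 genes, 551 higher and 230 lower, and without it and spironolactone library 3 it called 1040. Without vehicle library 1 it called 40, of which 38 were lower, Myog and Mybpc1 of muscle among them, and without that library and the lists it called 0. Leaving out spironolactone library 3 gave 2 calls, Rps10l1 and a gene known by a clone name, and leaving out any of the other libraries gave 0. Rps10l1 had 2.54, 3.38 and 44.8 CPM with spironolactone and 36.3, 33.1 and 36.1 CPM with vehicle. For this gene the library left out lay above all vehicle libraries. On the second principal component (16.4% of the variance), vehicle library 3 had the vehicle score nearest to spironolactone libraries 1 and 2: they scored 18.1 and 27.0, and vehicle libraries 1 to 3 scored -11.0, -19.1 and -2.06. Spironolactone library 3 scored -13.0, among the vehicle libraries.

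**Figure D2:**
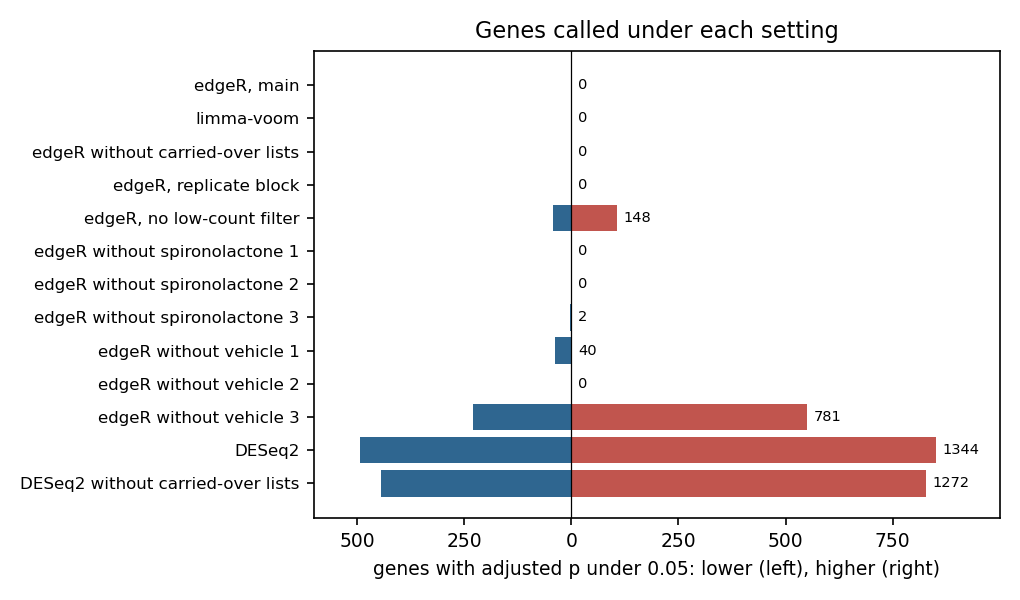
Number of genes called at an adjusted p under 0.05 under each setting, genes lower with spironolactone to the left of 0 and higher ones to the right, with the total beside each bar. edgeR called 0 genes with all libraries and 781 without vehicle library 3, and DESeq2 called 1344.

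**Figure D3:**
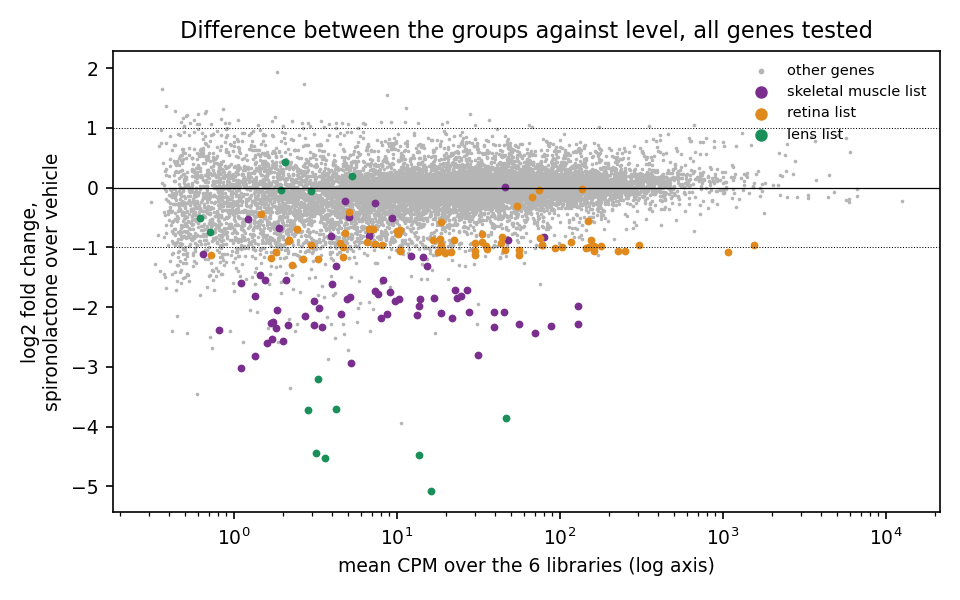
Log2 fold change, spironolactone over vehicle, against mean CPM (log axis) for the 14761 genes tested; dotted lines mark 2-fold. Genes of the muscle and lens lists (medians -1.87 and -3.46) lie mostly below 0, the retina list lies in a band near -0.96, and the other genes spread about 0, 279 of them at least 2-fold lower.

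Epithelial transcripts were higher with spironolactone, and this held across the basal layer, the barrier and the junctions. Of 27 tested genes on the corneal epithelium list, 26 had a higher mean, with a median log2 fold change of 0.55. Of the 27, 24 were higher at an unadjusted edgeR p under 0.05 (88.9%, against 12.2% of all genes). DESeq2 called 22 higher (81.5%, against 5.77%). Krt5, a keratin of basal stratified epithelium, had 5532, 7183 and 6950 CPM with spironolactone and 3366, 2863 and 4460 CPM with vehicle. Its partner Krt14 had 4061, 4386 and 5543 CPM against 2699, 2117 and 3291 CPM. Tp63, the transcription factor of basal epithelial progenitors, had 119, 130 and 129 CPM against 73.7, 73.0 and 91.0 CPM. In each of the 3 genes the groups did not overlap, and vehicle library 3 lay nearest to the spironolactone libraries. Their log2 fold changes were 0.88 (SE 0.18), 0.79 (SE 0.19) and 0.67 (SE 0.095), with edgeR adjusted p of 0.0748, 0.0858 and 0.0649. Grhl3, a transcription factor of the epithelial barrier, had a log2 fold change of 0.71. Krt12, the keratin of differentiated corneal epithelium, was at 10.2 and 8.63 TPM in the group means, where Krt13, a keratin of conjunctival and limbal epithelium, was at 9311 and 5463 TPM. Krt12 had 11.1, 11.4 and 12.2 CPM against 7.8, 8.42 and 12 CPM, and these overlapped.

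Adhesion genes were higher from the basement membrane to the desmosome. Of 27 tested adhesion genes, 26 had a higher mean and 19 were called higher by DESeq2 (70.4%, against 5.77% of all genes). The list's median log2 fold change was 0.58. Col17a1 had 747, 809 and 829 CPM with spironolactone and 444, 396 and 504 CPM with vehicle. Lamb3, a chain of the laminin that anchors hemidesmosomes, had 131, 115 and 102 CPM against 69.5, 72.6 and 74.8 CPM. Cdh3, the P-cadherin of basal cells, had 196, 212 and 211 CPM against 150, 147 and 153 CPM. The groups did not overlap in these genes, and for Cdh3 and Lamb3 the vehicle libraries were within a narrow range. Their log2 fold changes were 0.83 (SE 0.095), 0.68 (SE 0.093) and 0.46 (SE 0.053), each with an edgeR adjusted p of 0.0649 and DESeq2 adjusted p of 4.72e-12, 1.94e-07 and 8.06e-10. Dsp, the desmosomal plaque protein desmoplakin, had 2948, 3129 and 3209 CPM against 1563, 1673 and 2331 CPM, a log2 fold change of 0.74. The exception with an unadjusted p under 0.05 was Dst, which encodes dystonin and also has muscle and nerve forms, at -0.26.

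Wound keratins and cornified envelope genes showed the largest shift among the epithelial lists. All 26 tested members had a higher mean, and the median log2 fold change was 0.73. Of them, 19 had an unadjusted p under 0.05 (73.1%, against 12.2% of all genes) and DESeq2 called 16 (61.5%, against 5.77%). Sprr1a had 779, 960 and 950 CPM with spironolactone and 340, 353 and 608 CPM with vehicle. Krt17, a keratin induced in wounded epithelium, had 1280, 1106 and 1358 CPM against 808, 646 and 863 CPM. Evpl, the envelope protein envoplakin, had 804, 842 and 761 CPM against 373, 459 and 561 CPM. The groups did not overlap, and vehicle library 3 was the highest vehicle library in all 3 genes. Log2 fold changes were 1.05 (SE 0.25), 0.69 (SE 0.13) and 0.79 (SE 0.14). Without vehicle library 3 the list's median was 0.97 and edgeR called 16 of the 26 genes. In that fit 20 of the 27 corneal epithelium genes and 17 of the 27 adhesion genes were called. Over all genes that fit called 781 of 14841, 551 of them higher. Krt1, a keratin of cornifying epidermis, was among the genes of largest fold, with 4.68, 7.49 and 6.6 CPM against 2.32, 2.51 and 4.0 CPM and a log2 fold change of 1.09.

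Conjunctival and limbal keratins were also higher, while the rest of those lists was mixed. Krt13 had 6061, 8449 and 7249 CPM against 3301, 3453 and 5522 CPM, a log2 fold change of 0.83 (SE 0.23). Krt4, its partner, had 3912, 5080 and 4316 CPM against 2022, 2274 and 3133 CPM, and Krt7, a conjunctival keratin, had 279, 243 and 234 CPM against 150, 174 and 162 CPM. The groups did not overlap for any of them. On the conjunctiva list 11 of 17 tested genes had a higher mean. DESeq2 called 5 higher (29.4%, against 5.77% of all genes), 4 of them keratins. In the median over the list's genes, each centred on its own mean log2 CPM, spironolactone library 1 stood above the rest. In summed CPM it was the lowest of its group, at 11085 against 14399 and 12497 CPM. Without it the list's median log2 fold change was -0.05 instead of 0.24. Krt15, a keratin of limbal basal cells, had 2739, 2854 and 2340 CPM against 1427, 1837 and 2039 CPM, and Gjb2, the gap junction protein connexin 26, had a log2 fold change of 0.66. On the limbal progenitor list 5 of 21 genes had an unadjusted p under 0.05 in the higher direction (23.8%, against 12.2% of all genes) and 4 in the lower (19.0%, against 10.4%). Without spironolactone library 1 or 3 or vehicle library 2 the lower count was 2. Without vehicle library 3 its median was 0.07 instead of 0.20.

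The epithelial shift was found beside lower muscle and retina transcripts in the same libraries. Without the 3 carried-over lists the medians were 0.54 for corneal epithelium, 0.57 for adhesion and 0.73 for wound keratins. Those lists held 0.148% to 1.08% of each library's counts, and their removal acts on other genes mainly through the scaling. These medians could therefore move little, whatever the source of the shift. Without spironolactone library 3 the medians were 0.54, 0.59 and 0.75. Together the 27 corneal epithelium genes had summed means of 21209 ± 1453 CPM with spironolactone and 13405 ± 2033 CPM with vehicle (SD, n = 3 each), and no spironolactone library overlapped a vehicle library. The share of epithelium in each piece of tissue was not measured, so its part in these differences was not tested.

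**Figure D4:**
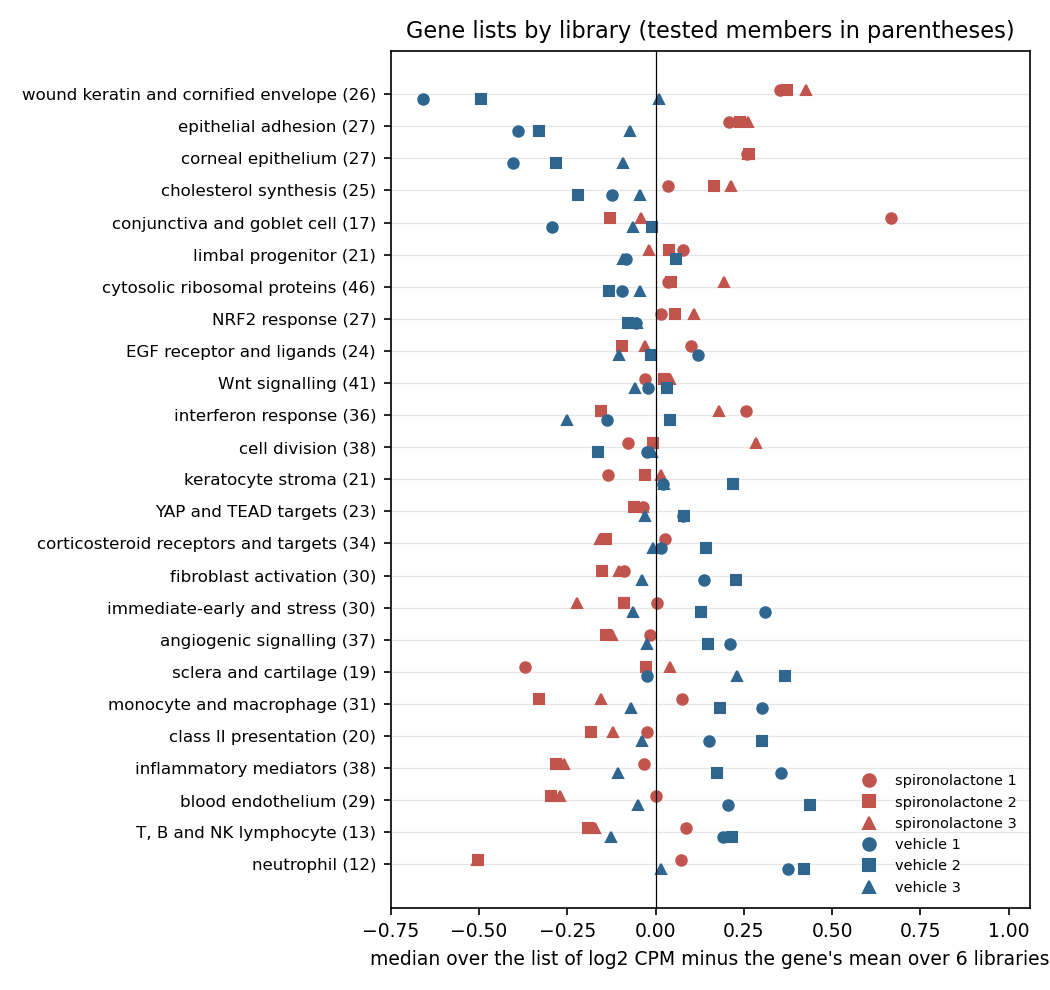
Each gene list in each library: the median over its tested members of log2 CPM minus the gene's own mean over the 6 libraries, with tested members in parentheses. The wound keratin, adhesion and corneal epithelium lists have all spironolactone libraries to the right of all vehicle libraries, while the endothelial and immune lists overlap between spironolactone library 1 and vehicle library 3.

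Receptor, metabolic and antioxidant genes were mixed, and the cells that made them are not known from bulk RNA. Erbb2, a receptor kinase that pairs with the EGF receptor, had 50.2, 57.9 and 53.6 CPM with spironolactone and 36.3, 37.5 and 38 CPM with vehicle, for a log2 fold change of 0.53 (SE 0.067). Erbb3 and Egfr had log2 fold changes of 0.33 and 0.31, and the groups did not overlap in any of the 3. Erbb4, expressed in nerve and muscle among other tissues, was at -1.47 with 0.2 CPM in spironolactone library 3 and 0.62 and 0.886 CPM in the other 2. The EGF receptor list as a whole had no direction: 13 of 24 genes had a higher mean, with a median of 0.04. Among Wnt genes, the ligands Wnt4 and Wnt6 and the receptor Fzd6 had log2 fold changes of 0.49, 0.76 and 0.34, and 22 of 41 genes on that list had a higher mean.

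Genes of cholesterol synthesis were higher by a small amount. Of 25 genes, 24 had a higher mean, with a median log2 fold change of 0.27 and a range of -0.04 to 0.53. At an unadjusted p under 0.05, 19 were higher (76.0%, against 12.2% of all genes), and DESeq2 called 9 (36.0%, against 5.77%). Without vehicle library 2, 11 had an unadjusted p under 0.05. Fdft1, the squalene synthase, had 134, 154 and 150 CPM with spironolactone and 111, 110 and 126 CPM with vehicle. Sc5d, a late enzyme, had 164, 173 and 173 CPM against 138, 134 and 151 CPM. No spironolactone value overlapped a vehicle value in either gene, and their log2 fold changes were 0.34 and 0.27. In the NRF2 list of antioxidant and detoxifying enzymes, 13 of 27 genes were higher at an unadjusted p under 0.05 (48.1%, against 12.2% of all genes). On the same list 4 were lower (14.8%, against 10.4%). Gsr, the glutathione reductase, had 212, 238 and 225 CPM against 160, 169 and 178 CPM, a log2 fold change of 0.42. Txn1, thioredoxin, and Gsta4, a glutathione transferase, were at 0.78 and 0.52, whereas Gpx3 and Gpx4, both glutathione peroxidases, were at -0.32 and -0.23. Egln3, a prolyl hydroxylase induced by hypoxia, had 152, 160 and 166 CPM against 108, 98.6 and 114 CPM, and Pkm, a pyruvate kinase, had a log2 fold change of 0.31. On the hypoxia and glycolysis list 13 of 30 genes were higher at an unadjusted p under 0.05 (43.3%, against 12.2% of all genes). The 2 lower ones were 6.67%, against 10.4%. Without both libraries numbered 3 the higher and lower counts were 6 and 6. The higher count was 7 without spironolactone library 2 or 3 and 6 without vehicle library 2, and the lower count was 4 without vehicle library 3.

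Ribosomal protein genes were higher by a small amount. All 46 tested had a higher mean with spironolactone, 44 with groups that did not overlap (95.7%, against 16.0% of all genes). The median log2 fold change of the 46 was 0.19. Rpl3 had 1389, 1451 and 1543 CPM against 1245, 1220 and 1269 CPM, and Rps18 and Rpl10a had log2 fold changes of 0.23 and 0.27. Eef1a1, the elongation factor among the most abundant transcripts, had 4730, 4855 and 4877 CPM against 4177, 4165 and 4162 CPM. DESeq2 called 13 of the 46 (28.3%, against 5.77%). Spironolactone library 3 was the highest. Of the 46, 39 had an unadjusted p under 0.05 (84.8%, against 12.2% of all genes). There were 20 without spironolactone library 3, 13 without vehicle library 1 and 14 without vehicle library 2. Counts are relative within a library, so a higher share of some transcripts goes with a lower share of others. Many ribosomal protein genes have near-identical processed copies, which can share reads with them.

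Endothelial transcripts were lower by a moderate amount, but not cleanly by library. Of 29 tested genes on the blood endothelium list, 26 had a lower mean, and the median log2 fold change was -0.42. At an unadjusted p under 0.05, 13 were lower (44.8%, against 10.4% of all genes). DESeq2 called 12 lower (41.4%, against 3.34%). Erg, a transcription factor of endothelium, had 17.6, 15.9 and 16.8 CPM with spironolactone and 25.6, 24.8 and 21.1 CPM with vehicle. Plvap, a protein of fenestrated and new vessels, had 61.0, 53 and 56.8 CPM against 75, 93.6 and 73.3 CPM. Kdr, the main receptor of VEGF-A, had 112, 124 and 54.6 CPM against 161, 178 and 134 CPM. Both groups were fully separate in these genes, and for Kdr spironolactone library 3 was far below the rest of its group. Log2 fold changes were -0.50 (SE 0.095), -0.50 (SE 0.11) and -0.70 (SE 0.32), with edgeR adjusted p of 0.0695, 0.0748 and 0.262. Cdh5, the cadherin that defines endothelium, had 89.5, 64.5 and 65.1 CPM against 96.4, 119 and 78.4 CPM, and these values overlapped. Summed over the list, spironolactone library 1 had 1503 CPM and vehicle library 3 had 1424 CPM. Without vehicle library 3 the median was -0.55 and edgeR called 5 of the 29 genes. Over all genes that fit called 781 of 14841, 230 of them lower.

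Angiogenic ligands and receptors had smaller differences. Vegfa, the main vessel growth factor, had 88.6, 80.2 and 77.2 CPM with spironolactone and 115, 94.3 and 85.6 CPM with vehicle, for a log2 fold change of -0.26 (SE 0.11) with overlapping groups. Of the 37 genes on the angiogenic list, 30 had a lower mean, and the median was -0.23. Of the 37, 15 were lower at an unadjusted p under 0.05 (40.5%, against 10.4% of all genes). This count was 6 without spironolactone library 2, 8 without vehicle library 1 and 5 without vehicle library 2. S1pr3, a receptor of sphingosine phosphate, was at -0.27. The Notch ligands Jag1 and Jag2, also made by epithelium, were higher at 0.41 and 0.34, and their groups did not overlap. DESeq2 called 4 genes of the list higher and 4 lower (10.8% each, against 5.77% and 3.34% of all genes). The lymphatic list had 13 of 15 genes with a lower mean. Prox1, which defines lymphatic endothelium and is also made in retina and lens, had 13.4, 14.9 and 1.35 CPM against 19.0, 19.3 and 20.1 CPM.

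Adhesion molecules for leukocytes and cytokine transcripts were lower with spironolactone, most of all against vehicle libraries 1 and 2. Sele, E-selectin of activated endothelium, had 5.8, 4.39 and 3.15 CPM with spironolactone and 11.8, 11.2 and 8.81 CPM with vehicle. Selp, P-selectin, had 11.7, 7.13 and 8.7 CPM against 19.6, 33.8 and 18 CPM. Il6, an inflammatory cytokine, had 0.733, 0.282 and 0.2 CPM against 8.26, 2.87 and 0.927 CPM. There was no overlap between groups, and for Il6 vehicle library 1 was far above the others. Log2 fold changes were -1.26 (SE 0.23), -1.38 (SE 0.30) and -3.35 (SE 0.96), with edgeR adjusted p of 0.0659, 0.0789 and 0.124. On the list of inflammatory mediators 27 of 38 genes had a lower mean, 11 with an unadjusted p under 0.05, and the median was -0.36. DESeq2 called 6 lower (15.8%, against 3.34% of all genes). Nlrp3, the inflammasome sensor, was at -0.53. Against that direction, Il1rn, the interleukin 1 receptor antagonist made by epithelium, was at 0.57, with 67.2, 68.4 and 65.7 CPM against 39.9, 38.8 and 56.8 CPM. The 11 were 28.9% of the list, against 10.4% of all genes. They numbered 4 without spironolactone library 2, 5 without spironolactone library 3, 6 without vehicle library 1, 7 without vehicle library 2 and 21 without vehicle library 3.

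Leukocyte markers had lower means for most genes, and the share called differed by list. All 12 tested neutrophil genes had a lower mean, and the median was -0.64. Of the 12, 5 had an unadjusted p under 0.05 (41.7%, against 10.4% of all genes), and 8 without spironolactone library 1. DESeq2 called 4 lower (33.3%, against 3.34%). Csf3r, the receptor of the neutrophil growth factor, had 7.72, 5.36 and 6.1 CPM with spironolactone and 10.5, 11.1 and 9.91 CPM with vehicle. S100a9, a calcium-binding protein of neutrophils, had 8.17, 4.99 and 5.25 CPM against 12.9, 10.7 and 8.98 CPM. Values of the groups were separate in these genes, but summed over the list spironolactone library 1 (233 CPM) lay above vehicle libraries 1 and 3 (214 and 138 CPM). Of 31 macrophage genes, 26 had a lower mean. Groups were apart in 5 (16.1%, against 16.0% of all genes) and 1 was called lower by DESeq2 (3.23%, against 3.34%), both shares at the background. At an unadjusted p under 0.05 in edgeR, 8 were lower (25.8%, against 10.4% of all genes). With 1 library left out, this count ranged from 1 without vehicle library 1 to 14 without vehicle library 3. Summed over the list, spironolactone library 1 was the highest of all at 6179 CPM. The gene called was Adgre1, with 33.3, 31.9 and 35.2 CPM against 41.5, 41.7 and 40.2 CPM. Cd83, a marker of mature dendritic cells, had 27.8, 36.9 and 29.4 CPM against 51.7, 46.3 and 49.7 CPM, a log2 fold change of -0.65 (SE 0.11). All 13 tested T, B and NK cell genes had a lower mean, but 0 were called by DESeq2 and 1, Cd2, had an unadjusted p under 0.05. On the interferon list 32 of 36 genes had a higher mean, but calls were near the background: 6 were higher at an unadjusted p under 0.05 (16.7%, against 12.2% of all genes) and 4 had groups apart (11.1%, against 16.0%). The 6 were 17 without spironolactone library 2 and 3 without spironolactone library 1 or 3 or vehicle library 1 or 3. Oasl, an interferon-induced gene, was at 0.78, and Mx1 had 51.7, 25.4 and 74.4 CPM against 25.3, 30.2 and 13.2 CPM, which overlapped. Without both libraries numbered 3 the interferon median was 0.08 instead of 0.30.

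Fibroblast activation genes had mostly lower means. Ltbp2, a matrix protein that binds the elastic fibre, had 96.1, 113 and 85.7 CPM with spironolactone and 173, 180 and 156 CPM with vehicle. Plod2, which modifies collagen, had 70.9, 59.2 and 70.9 CPM against 109, 126 and 83.5 CPM. Spironolactone and vehicle values were separate, and log2 fold changes were -0.79 (SE 0.11) and -0.66 (SE 0.16). Of 30 fibroblast activation genes, 25 had a lower mean, and the median was -0.23. At an unadjusted p under 0.05, 12 were lower (40.0%, against 10.4% of all genes). DESeq2 called 8 lower (26.7%, against 3.34%). The 12 were 6 without spironolactone library 2, 7 without vehicle library 1 and 6 without vehicle library 2. Lox, which cross-links collagen, was at -0.36. On the sclera and cartilage list 14 of 19 genes had a lower mean and 5 a higher one, and 3 were lower at an unadjusted p under 0.05 (15.8%, against 10.4%). Col9a1, Col9a2 and Col9a3, chains of a collagen of cartilage and vitreous, were at -0.93, -0.65 and -0.93. Col9a1 had 71.6, 86.4 and 47.1 CPM against 142, 128 and 121 CPM, lowest in the library with the least retina. The keratocyte list had a median of -0.10. DESeq2 called 4 of its 21 genes lower and 1 higher (19.0% and 4.76%, against 3.34% and 5.77% of all genes).

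Immediate-early genes and targets of mechanical signalling were lower in part. Cyr61, a target of YAP and TEAD, had 55.7, 42.9 and 39.6 CPM with spironolactone and 109, 81.2 and 64.8 CPM with vehicle. Ankrd1, another such target that muscle also makes, had 3.27, 3.02 and 2.1 CPM against 6.18, 9.54 and 18.7 CPM. Groups were apart, with log2 fold changes of -0.89 (SE 0.22) and -2.03 (SE 0.44). Ajuba, a junction protein on the same list, was higher at 0.38, and the list's median was -0.09. Atf3 and Egr2, stress-induced transcription factors, were at -0.66 and -0.72, and Fos was at -0.84. Of 30 immediate-early and stress genes, 11 were lower at an unadjusted p under 0.05 (36.7%, against 10.4% of all genes). The 3 higher ones were 10.0%, against 12.2% of all genes. Hspa1b, a heat shock protein, was among the higher ones at 0.45. The number of lower genes was 3 without vehicle library 1 and 7 without spironolactone library 2.

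**Figure D5:**
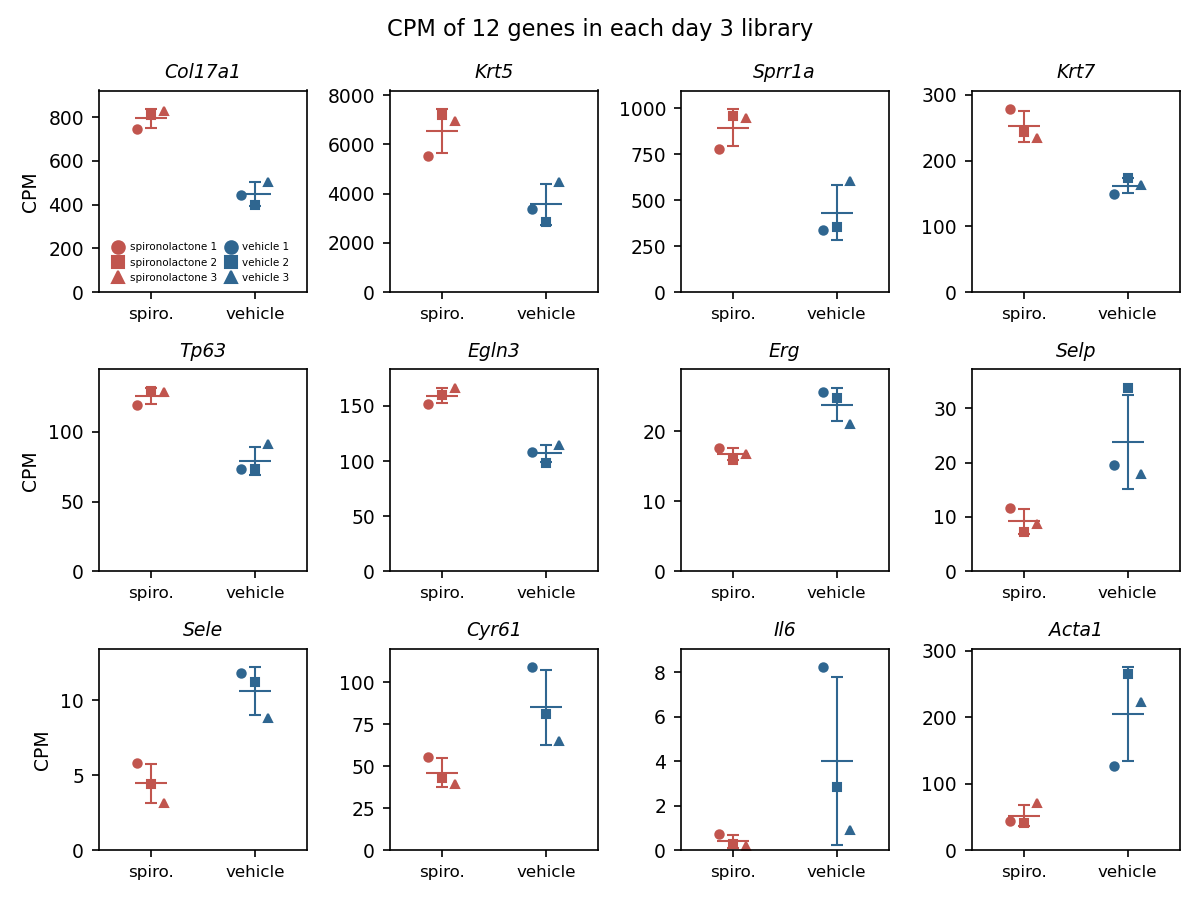
CPM of 12 genes in each day 3 library (points; circle, square and triangle are replicates 1, 2 and 3), with the group mean and SD as bars; each panel has its own axis from 0. The groups do not overlap in any panel, and vehicle library 3 (triangle) is the vehicle point nearest to spironolactone in several, such as Krt5, Sprr1a and Il6.

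Transcripts tied to the drug's receptor were mixed. Nr3c2, the mineralocorticoid receptor, had 12.8, 12.9 and 9.7 CPM with spironolactone and 11.7, 13.3 and 12.4 CPM with vehicle, for a log2 fold change of -0.08 (SE 0.13). Nr3c1, the glucocorticoid receptor, was at -0.14 (SE 0.081). Sgk1, a kinase induced by both receptors, had 163, 151 and 127 CPM against 195, 207 and 163 CPM, a log2 fold change of -0.36 (SE 0.12) with an edgeR adjusted p of 0.156. Spironolactone library 1 and vehicle library 3 were both at 163 CPM, and the rest of the values did not cross. Per1, a clock gene induced by glucocorticoid, had 24.9, 23.5 and 18.7 CPM against 26.8, 34.2 and 29.3 CPM, and these did not overlap. Fkbp5, a chaperone induced by glucocorticoid, had 51.9, 27.8 and 45.1 CPM against 39.3, 38.3 and 40.9 CPM, a log2 fold change of 0.07 (SE 0.22). Lcn2, induced by mineralocorticoid and in inflammation, had 157, 75.6 and 65.7 CPM against 132, 221 and 74.5 CPM, with wide overlap. On the list of corticosteroid receptors and targets 24 of 34 genes had a lower mean, 9 lower and 5 higher at an unadjusted p under 0.05 (26.5% and 14.7%, against 10.4% and 12.2% of all genes). DESeq2 called 6 lower and 1 higher (17.6% and 2.94%, against 3.34% and 5.77%). At an unadjusted p under 0.05, 4 were lower without spironolactone library 2 and 3 without vehicle library 2, and the higher count was 1 without spironolactone library 1, 2 without vehicle library 1 and 3 without spironolactone library 2 or 3 or vehicle library 2. The gene called higher was Anxa1, an anti-inflammatory protein abundant in epithelium, with 6833, 7894 and 7191 CPM against 4130, 4365 and 5947 CPM. Among those called lower was Cebpd, a transcription factor of the acute response, with 16.3, 16.0 and 13.1 CPM against 57.3, 37.0 and 18.1 CPM. Lox and Fam107a were at -0.36 and -0.35. On the clock list Nfil3, a transcription factor, was at -0.77 and Nr1d1, a repressor, at 0.35.

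The single genes with the smallest p values were not all on a list. Acap1, a regulator of endosomal recycling, had 26.8, 26.4 and 28.7 CPM with spironolactone and 17.9, 18.4 and 18 CPM with vehicle, for a log2 fold change of 0.59 (SE 0.066). Msln, mesothelin, had 172, 158 and 164 CPM against 122, 115 and 119 CPM. Ripk4, a kinase of epithelial differentiation, had 101, 109 and 103 CPM against 56.5, 56.7 and 70.6 CPM. In these genes the spread within groups was small beside the difference, and the edgeR adjusted p was 0.0649 for each. Hadh, an enzyme of fatty acid oxidation, Slc25a13, a mitochondrial aspartate and glutamate carrier, and Capg, an actin capping protein, were at 0.48, 0.65 and 0.49. Of the genes with the largest fold, Ooep, known from oocytes, had 50.3, 39.7 and 27.9 CPM against 13, 15.7 and 21.7 CPM. Rnase3, a secreted ribonuclease, was at 1.94 but below 4 CPM in all libraries, and Gsdmc, a gasdermin, had 11.5, 14.8 and 19.5 CPM against 6.22, 5.78 and 9.36 CPM. Among lower genes, Pde2a, a phosphodiesterase, had 18.4, 18.3 and 13.8 CPM against 31.8, 33.1 and 30.7 CPM, a log2 fold change of -0.92 (SE 0.12). Wfdc1, a secreted protease inhibitor, had 27.0, 31.9 and 26.2 CPM against 50.9, 47.6 and 44.8 CPM. Cldn2, a tight junction protein, and Zfp354c, a zinc finger protein, were at -0.55 and -0.46. Aqp3, a water and glycerol channel of epithelium, was at 0.57.

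Cell division genes did not separate the groups. On that list 33 of 38 genes had a higher mean, but 0 had an unadjusted p under 0.05 in edgeR, 0 were called by DESeq2 and 0 had groups apart. Without spironolactone library 1, 12 had an unadjusted p under 0.05, all higher. Without spironolactone library 3 the median was 0.01 instead of 0.14. The proteasome, nuclear respiratory chain and melanocyte lists had medians of 0.09, 0.04 and 0.10. With 3 libraries per group the median half-width of the 95% interval was 0.91 on the log2 scale for genes below 1 CPM. For genes of 100 to 1000 CPM it was 0.16. These intervals are for single genes and give no limit of detection. After adjustment edgeR called 0 genes, Cdh3 at 0.46 included.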

How the data were processed

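Total RNA of peripheral cornea and limboscleral tissue was sequenced, and the 6 day 3 libraries were analysed. Tools named in the submitters' processing notes are RSEM 1.2.28, STAR 2.5.3a, Picard, DRAGEN, fastp, FastQC, edgeR 3.28.0 and DESeq2 1.26.0. The notes list Rnor_6.0 and rn6 as builds and give no roles. Per the file headers, the deposited files hold RSEM expected counts and TPM per gene symbol. Expected counts were rounded, and 3 rows that name an annotation source and no gene (0.12% to 0.181% of counts) were left out. Deposited TPM values were used only to compare levels between genes. No source used here says whether strand was counted. Reads of overlapping or antisense genes may be mixed, as may those of keratin, crystallin and other families.

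Genes passed edgeR's expression filter (minimum count 10), with TMM scaling, and were tested with edgeR 4.0.16 (robust quasi-likelihood, Benjamini-Hochberg at 0.05) in R 4.3.3. DESeq2 1.42.0, which gave no adjusted p for 864 genes, and limma 3.58.1 were alternatives, with RLE factors, other filters, a replicate block, left-out libraries and fits without carried-over genes. Principal components used log2 CPM with a prior count of 2; centred list medians used log2 of CPM plus 0.5. Permutation tests used scipy 1.17.1. Scripts were checked on simulated data. Of 1458 listed symbols on 50 lists, 1405 matched, 12 of them through a RefSeq gene table (GRCr8); promoters came from RefSeq.

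The comparison and gene lists were chosen with earlier results of these data known, so lists are described by counts and medians; only the summed levels of the muscle, retina and lens lists were tested. Genes named by rule have a mean CPM of at least 1 and groups apart in the fit without carried-over genes (the 12 smallest p per direction and the 6 largest folds at p under 0.01), or are the 3 members of each list with the smallest p, the 5 highest on each carried-over list, the 5 highest by TPM, or fixed receptors, targets and markers. Some are not reported here. Sprr1a, Dsp, Dst, Erbb4, Txn1, Gpx3, Gpx4, Cdh5, Prox1, Il6, Il1rn, Mx1, Cebpd, Fos, Rps10l1 and the genes that set vehicle library 1 apart were named after their values were seen. Day 7 levels were not used here.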

Additional observations from a re-analysis of the deposited data

How the results depend on the processing

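The count of 0 genes called held with RLE factors, limma-voom, a filter of 1 CPM in 3 libraries, no robust estimation and removal of the carried-over lists or of the lists with related symbols. It was 148 with no filter on low counts, 1344 in DESeq2, 1040 without both libraries numbered 3 and 0 to 781 with 1 library left out. Without the carried-over lists it was 1272 in DESeq2 and 0 to 806 with 1 library left out (6 without spironolactone library 3). After leaving out also the genes at least 2-fold lower in spironolactone library 3 than in all others, a choice made after seeing the data, it was 188 in edgeR and 1365 in DESeq2. The cause of these differences was not tested.

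The labels do not state that replicate numbers pair the libraries. Deviations of same-numbered libraries correlated at 0.0898, -0.0845 and 0.0486, and those of differently numbered ones at -0.106 to 0.0497. So few correlations cannot settle whether the libraries are paired. With the replicate block, edgeR called 0 genes, with 3103 at an unadjusted p under 0.05.

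Of the 199 genes named by rule, each under up to 13 alternatives (2541 values), 4 values in 2 genes changed sign: Fkbp5 in limma-voom (-0.00078) and without spironolactone library 1 (-0.119), and Nr3c2 without both libraries numbered 3 (0.0392) and without spironolactone library 3 (0.0389). Many of the 199 were chosen for a small p or for groups that did not overlap, so few sign changes could occur among them. Fkbp5 and Nr3c2 are among the fixed genes, which were not chosen in that way. With 1 library left out, Fkbp5 ranged from -0.119 to 0.296 and Nr3c2 from -0.154 to 0.0389. Of 644 list medians under 13 alternatives, 18 in 10 lists changed sign, the largest main median among them being 0.24, of the conjunctiva list. Low levels limit what can be seen: in genes below 1 CPM the interval of a difference spans several fold.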
